A study of Glycine max with 6 samples.

Results

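The MYB transcription factors measured here are the soybean (Glycine max) probe sets whose platform gene symbol begins with MYB and a digit, MYB138 among them. A probe set is a group of short probes on an Affymetrix array that together give 1 signal for a transcript. The rule found 116 MYB probe sets among 37593 soybean probe sets, on an array of 61170 probe sets in all. Of these, 102 carried a single gene symbol and covered 65 genes, 25 of them with more than 1 probe set. The other 14 carried several symbols, so their signal cannot be given to 1 gene. The symbols are those of the array's annotation, and 58 of the 69 gene identifiers behind them were found in the RefSeq table for Glycine_max_v4.0.

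The study compared total RNA from cotyledons, the storage organs of the seed, in 3 samples. The control was a nontransgenic soybean, which 1 label calls jack. The other samples were RNAi transgenics in which storage proteins are suppressed, from 2 independent lines called RNAi line 1 and RNAi line 2 here. Every sample is labelled as 150 mg cotyledon, and each sample was hybridised to 2 arrays as technical replicates, giving 6 arrays. The labels name neither the construct's promoter nor its target sequence, and the number of seeds or plants behind a sample is not given in the sources used here. The control is 1 sample, so genotype and anything else that set it apart (plant, harvest, labelling) cannot be told apart. In such bulk tissue, fewer cells of a type and less RNA per cell cannot be told apart either.

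MYB proteins carry a DNA-binding domain made of imperfect helical repeats, and plants have a large group with a pair of adjacent repeats. Members of this group act as activators or repressors in secondary metabolism, cell fate, development and the response to stress. In flavonoid synthesis some of them work in complexes with basic helix-loop-helix and WD40 proteins. In soybean seeds flavonoids include isoflavones, which the cotyledon accumulates, and MYB176 is known as an activator of CHS8, a chalcone synthase gene at the start of that pathway.

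Signals were the deposited linear values, which had the same mean of 500.05 on every array after trimming 2% of probe sets at each end. Background was taken from 23350 probe sets that carry the prefixes PsAffx and HgAffx and represent other organisms. Their 95th percentile lay between 68.4 and 91.7 over the arrays, and the second array of line 2 was the highest. Between 26459 and 27396 soybean probe sets were above it on an array. Storage cell genes showed the label of the lines in part. Of 17 such marker probe sets above background 5 fell and 1 rose over both lines by the test below. These are 35.3% of them, beside 1.64% of all tested soybean probe sets, and 11 were not called. The falls were in CG-BETA-1, GY2 and the glycinin gene GY3, which fell by 3.44 on the log2 scale. GY5, KTI1, KTI3, LOX1.1 and P34 were among those not called. The summed signal of 12 seed coat marker probe sets was 19535 and 20631 on the control arrays and between 9289 and 10957 on the RNAi arrays, and 9 of the 12 were above background. Of those 9, 2 fell (PRP2 and SBPRP) and 3 rose (SCB1, DFR1 and F3H), or 55.6% of them, beside 1.64% of all tested. DFR1 was not above background in the control and entered through the lines, a selection that favours rises. The part of the seed coat difference in the MYB results was not tested. The summed signal of 16 green tissue markers was 152207 and 159068 in the control and between 116434 and 156014 in the lines. Of the 11 above background 3 rose (27.3%, beside 1.64% of all tested), ELIP and a VSPA probe set among them. The other 8 were not called, with LOC547819 at -0.69 and -0.66. That VSPA probe set was not above background in the control and entered through the lines, which itself favours a rise. No soybean probe set with a single gene symbol carried a nodule marker symbol, and probe sets with several symbols were not searched for them.

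A smaller share of the MYB probe sets than of all soybean probe sets was above background. A probe set was called above background in a sample when its signal exceeded the 95th percentile on both of that sample's arrays. By this rule 54 MYB probe sets were above background in the control, 57 in line 1 and 55 in line 2, that is 46.6%, 49.1% and 47.4% of the 116. Over all soybean probe sets the shares were 69.0%, 69.4% and 68.1%. In all, 62 MYB probe sets (53.4%) were above background in at least 1 sample, against 73.0% of soybean probe sets, and these 62 entered the tests. They comprised 53 probe sets of 39 genes and 9 with shared symbols. There were 48 above background on all 6 arrays and 38 on no array. Of the 62, 8 were not above background in the control and entered through an RNAi line, so the counts below do not describe all members.

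For 26 genes no single-symbol probe set was above background in any sample. They were MYB11, MYB14, MYB51, MYB57, MYB73, MYB75, MYB76, MYB79, MYB82, MYB84, MYB97, MYB98, MYB99, MYB101, MYB120, MYB121, MYB124, MYB128, MYB139, MYB142, MYB150, MYB164, MYB179, MYB181, MYB184 and MYB185. Among them MYB73 is known from work on seed lipid accumulation, MYB14 from plant architecture, and MYB76 and MYB84 from stress tolerance. A further 8 genes, MYB12A, MYB13, MYB48, MYB50, MYB60, MYB92, MYB145 and MYB172, had probe sets on both sides of the background. The 54 probe sets that met the rule in no sample had signals between 0.187 and 138 on single arrays, and the median of their means was 28.6. Of these, 38 were below background on every array, and 16 exceeded it on some array. Not being above background bounds these transcripts at this array's sensitivity and does not show that they are absent.

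**Figure D1:**
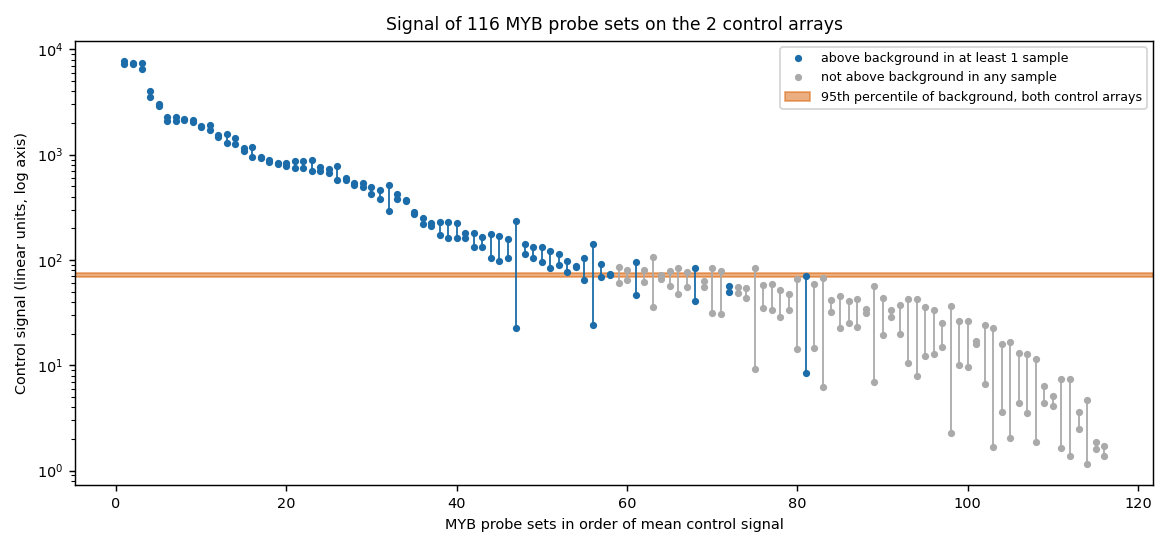
Signal of each of the 116 MYB probe sets on the 2 control arrays (points joined by a line, log axis), in order of mean control signal. Blue points are the 62 probe sets above background in at least 1 sample and grey points the other 54, and the band spans the 95th percentile of background on the control arrays.

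The brightest MYB probe sets of the control cotyledon belonged to MYB112 and MYB50. Rank was the percentile of the control signal among all soybean probe sets, which places each probe set in the whole array, since the signals of different probe sets also depend on their probes. The 2 probe sets shared by MYB112 and MYB50 lay at percentiles 96.2 and 96.1, and the probe set of MYB112 alone lay at 95.9. MYB70 lay at 92.4 and the probe set shared by MYB180 and MYB93 at 90.4. These 5 were the only MYB probe sets above the 90th percentile in the control, 30 lay between the 50th and the 90th, and 81 lay below the 50th. The next ranks, between 85.0 and 86.9, were held by MYB50, MYB138, MYB107, MYB180 and MYB93. Over the 62 tested MYB probe sets the median percentile was 57.7, against 63.5 over all 27460 tested soybean probe sets.

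The plot of control signals shows a short bright end and a long tail into background. The technical arrays of a sample lay closer together at the bright end: the median log2 difference between the 2 arrays of a sample was 0.098 for the 16 tested members with a control signal over 1000. It was 0.130 for the 22 between 200 and 1000 and 0.375 for the 24 under 200. A difference above 1 between technical arrays occurred in 9 of the 62, which limits what can be said of dim members.

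In the RNAi lines, 3 MYB probe sets fell and none rose against the control. They were both probe sets of MYB138 and 1 of the 2 shared by MYB112 and MYB50. This comparison used the mean of the 2 line means minus the control, on log2(signal + 16), with limma and Benjamini-Hochberg adjustment over all 27460 tested soybean probe sets. Its SE comes from the gap between the 2 line means and the spread of all tested probe sets, not from scatter between technical arrays. The 3 calls are 4.84% of the 62 tested members. Over all tested soybean probe sets 1.64% were called, 0.594% lower and 1.05% higher. The adjusted p of all 451 calls lay between 0.0488 and 0.0498, just inside the threshold of 0.05. Before adjustment, 25 of 62 MYB probe sets had a p below 0.05, beside 33.1% of all tested. After scaling to the poly-A spikes, RNAs added during labelling, all 62 MYB differences were above 0 and 58 were called higher, and the median of all tested probe sets stood at 1.52 on the log2 scale in place of 0.02. With median centring 12 members were called, 8 lower and 4 higher. With any 1 of the 4 RNAi arrays left out no member was called, and 8 or 9 were without the first or the second control array. The directions below hold on the deposited scale, relative to the other transcripts of the same array.

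MYB138 gave the largest falls among the members. Its brighter probe set had signals of 2282 and 2069 on the control arrays, 777 and 735 on the line 1 arrays and 674 and 739.7 on the line 2 arrays. Every RNAi array lay under both control arrays, and the lines overlapped each other. The difference was -1.55 (SE 0.11, 2 lines against 1 control), a 2.93-fold fall, with an adjusted p of 0.0488 in limma. The dimmer probe set of MYB138 had signals of 696 and 881 in the control, 282 on each line 1 array, and 268 and 295 in line 2. Again no RNAi array reached the control, and the difference was -1.43 (SE 0.10, adjusted p 0.0488 in limma), a 2.69-fold fall. The 2 probe sets carry related names and 1 gene symbol, so they are not independent evidence. After poly-A spike scaling they stood at 0.0998 and 0.0074.

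MYB112 and MYB50 were lower by a little over 1 on the log2 scale in both lines, on every probe set but the dimmer ones of MYB50, and by spike scaling they were higher. The first shared probe set had signals of 7774 and 7222 in the control, 3349 and 3272 in line 1, and 3166 and 3179.8 in line 2. It fell by 1.21 (SE 0.10, adjusted p 0.0497 in limma), with the control arrays far above all others. The second shared probe set, at 7223 and 7431 in the control, 3325 and 3302 in line 1 and 2942 and 3410.3 in line 2, missed the threshold with a difference of -1.17 (SE 0.10, adjusted p 0.0505 in limma). The probe set of MYB112 alone had signals of 7395 and 6526 in the control, 3058 and 3051 in line 1 and 2995 and 3408 in line 2. Its control arrays stood clear of the others, with a difference of -1.15 (SE 0.10, adjusted p 0.0506 in limma).

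The brightest probe set of MYB50 had signals of 2258 and 2094 in the control, 856 and 979 in line 1 and 1014 and 1074 in line 2. The groups did not overlap, and the difference was -1.14 (SE 0.13, adjusted p 0.0543 in limma). A second MYB50 probe set went another way, with 744 and 869.7 in the control, 1215 and 1066 in line 1 and 557 and 859.8 in line 2. There line 1 was above the control and line 2 overlapped it, and the difference was 0.14 (SE 0.35, adjusted p 0.80 in limma). The last MYB50 probe set was below background, at 5.19 to 47.5 over the 6 arrays. All MYB112 and MYB50 probe sets but that last one carry names of 1 transcript cluster, so they are not taken as independent evidence. Whether they share sequence was not tested.

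**Figure D2:**
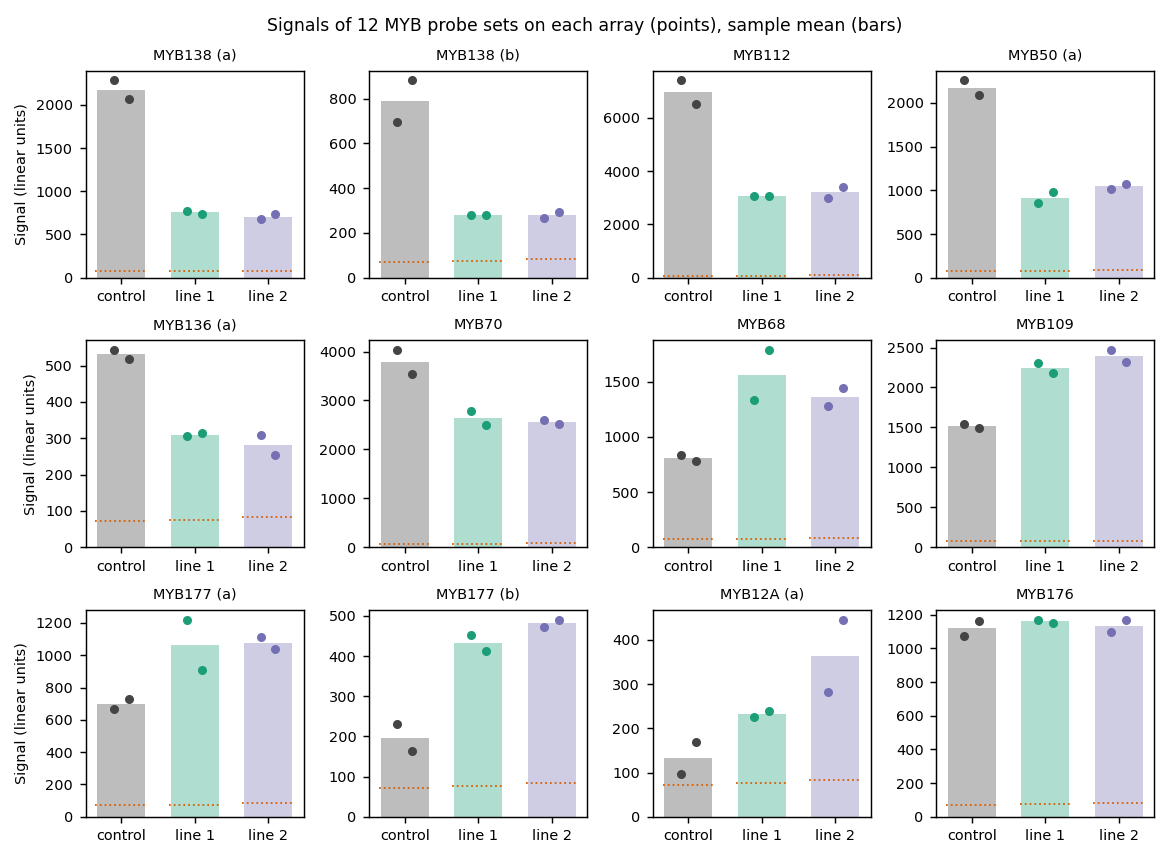
Signals of 12 MYB probe sets on each array (points) with the sample mean (bars from 0) and the mean 95th percentile of background in each sample (dotted line); letters order the probe sets of a gene by control signal. MYB138, MYB112, MYB50 (a), MYB136 (a) and MYB70 are lower in both lines and MYB68, MYB109 and MYB177 higher on the deposited scale. MYB176 stays between 1075 and 1171. By poly-A spike scaling MYB112, MYB50 (a), MYB136 (a) and MYB70 are higher over both lines, and MYB138 is nearly unchanged.

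Among all tested members the changes spread to both sides. The median difference was 0.02 over the 62 MYB probe sets and 0.02 over all tested probe sets. Of the 62, 12 differed by more than 1 on the log2 scale, 6 up and 6 down, against 4.55% of all tested probe sets. The 6 with the larger falls were the MYB138, MYB112 and MYB50 probe sets just described, with mean control signals from 789 to 7498. The 6 with the larger rises had mean control signals from 39.1 to 196, and none of them passed the test in this comparison. Among these 6, the dimmer MYB83 probe set, the dimmest tested MYB12A probe set, MYB172 and MYB13 did not meet the background rule in the control. They entered through an RNAi line, and that selection itself favours rises. The count of rises, and with it the 12, is therefore not read as an excess over all tested probe sets. All arrays of the lines lay on 1 side of both control arrays for 33 of the 62, 14 higher and 19 lower, while over all tested probe sets this held for 49.5%, 25.9% higher and 23.6% lower.

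**Figure D3:**
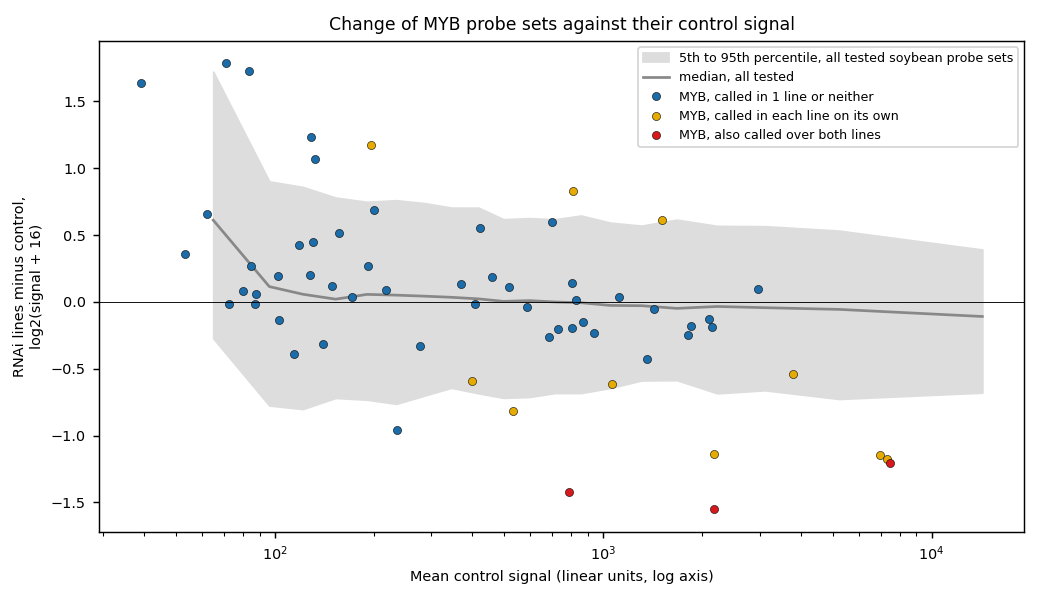
Difference of the RNAi lines from the control on log2(signal + 16) against mean control signal (log axis) for the 62 tested MYB probe sets, over the 5th to 95th percentile range and the median of all tested soybean probe sets; the control enters both axes. The 3 members that fell (red) have control signals of 789, 2176 and 7498, and the larger rises sit at control signals under 200; by poly-A spike scaling the values of the falls lie above 0.

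Of the members known from stress responses, MYB118, MYB177, MYB68, MYB92 and MYB81 were tested, and none was called over both lines. MYB118, known from drought and salt tolerance, had signals of 220.03 and 252 in the control, 59.2 and 186 in line 1 and 123 and 116 in line 2. On scatter between technical arrays the SE of its difference was 0.45 in each line. The control was above all RNAi arrays, but the line 1 arrays differed by 1.42 between themselves, and the difference of -0.96 (SE 0.12) missed the threshold with an adjusted p of 0.0570 in limma and turned to 0.46 by spike scaling. MYB177, which raised stress tolerance when expressed in Arabidopsis, had 2 tested probe sets. The dimmer stood at 229.9 and 163 in the control, 453 and 412 in line 1 and 473 and 491 in line 2, and the brighter at 664 and 729.6, 1221 and 907, and 1114 and 1039.9. In both the control was lowest with no overlap, and the differences were 1.17 (SE 0.12, adjusted p 0.0526 in limma) and 0.60 (SE 0.10, adjusted p 0.0686).

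MYB68, known from the response to alkaline stress, had signals of 834 and 782 in the control, 1335 and 1788 in line 1 and 1284 and 1448 in line 2. The groups did not overlap, and the difference of 0.83 (SE 0.13) had an adjusted p of 0.0661 in limma. MYB92, like MYB177 a factor that raised tolerance in Arabidopsis, differed by 0.04 and 0.43 on its 2 tested probe sets, and MYB81 by -0.05, with adjusted p from 0.105 to 0.868 in limma.

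The members known from flavonoid and isoflavone synthesis did not pass the test in either direction. MYB176 had signals of 1075 and 1164 in the control, 1171 and 1149.6 in line 1 and 1099.5 and 1169 in line 2. The 3 samples overlapped, with a difference of 0.04 (SE 0.10, adjusted p 0.824 in limma). The 2 probe sets it shares with MYB175 differed by -0.26 and 0.19, and MYB175 alone by 0.55, none of them called. MYB133, known to raise isoflavonoid synthesis in soybean roots, differed by -0.23, -0.20 and 0.11 on its 3 probe sets. MYB29, also known from isoflavone synthesis, differed by -0.14 and 0.19, and MYB173, known from the flavonoid response to salt, by 0.09. Adjusted p ranged from 0.217 to 0.692 over these 6 probe sets in limma, and such a p does not show that the levels were equal.

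The enzyme genes of the pathway were counted separately. Of 66 phenylpropanoid and flavonoid probe sets 48 were tested, and 3 rose and none fell in the RNAi lines against the control. The risers were DFR1 (dihydroflavonol reductase), F3H (flavanone 3-hydroxylase) and 4CL1 (4-coumarate CoA ligase). These 3 are 6.25% of the 48, beside 1.64% of all tested probe sets. DFR1 and 4CL1 did not meet the background rule in the control and entered through the RNAi lines. That selection itself favours rises, so the share is not read as a result about the pathway. The F3H probe set was 1.32 higher on the log2 scale, and DFR1, not above background in the control, was at least 1.80-fold higher. The 4CL1 probe set differed by 1.23, but its control arrays read 22.7 and 159 and overlapped the lines, at 154 to 191, it was called in neither line alone (adjusted p 0.252 and 0.274 in limma), and the other 4CL1 probe set, at 0.53, was not called. DFR1 and F3H also stand in the seed coat list. The median difference of the 48 was 0.18. CHS8, looked at for its known link to MYB176 after its values were seen, had 4 tested probe sets that disagreed, at -1.20, -0.25, 0.16 and 0.72, and none of them passed the test over both lines. The first of these stood at 261 and 191 in the control, 99.3 and 61.8 in line 1 and 107 and 90.5 in line 2, and it was called lower in each line alone. Of the 48 tested, 9 were called higher and 4 lower in line 1, and 8 higher and 4 lower in line 2, or 27.1% and 25.0% of them, beside 14.3% and 15.4% of all tested probe sets. The same selection through the RNAi lines bears on these counts, so these shares are not read as a result about the pathway either. No soybean probe set with a single gene symbol matched the basic helix-loop-helix and WD40 list. Probe sets with several symbols were not searched for it.

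Further falls of moderate size were seen in MYB136, MYB178, MYB134 and MYB70 in the separate lines. For each line the 6 arrays were fitted in 3 groups that share a spread, so that p-values measure only the scatter between technical arrays, not between plants. By this measure 15 MYB probe sets were called in line 1 (4 higher, 11 lower) and 14 in line 2 (4 higher, 10 lower). Over all tested soybean probe sets 14.3% were called in line 1 (7.97% higher, 6.32% lower) and 15.4% in line 2 (8.48% higher, 6.91% lower). The 2 comparisons share the control arrays. In both lines 13 MYB probe sets were called in the same direction, 10 lower and 3 higher, beside 11.2% of all tested probe sets, 4.83% lower and 6.38% higher. Leaving out an array brought the counts to between 2 and 10 in line 1, lowest without its first array, and between 5 and 11 in line 2, lowest without its second. Of the 10 lower, 6 were the MYB138, MYB112 and MYB50 probe sets, which are not independent of each other.

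In line 1 the MYB138 probe sets fell by 1.50 and 1.42, and in line 2 by 1.60 and 1.43, all with SE between 0.11 and 0.14 and adjusted p between 0.0038 and 0.0078 in limma. MYB112 fell by 1.18 in line 1 and by 1.12 in line 2, and the brightest MYB50 probe set by 1.23 and 1.05. The 2 shared probe sets fell by 1.17 and 1.14 in line 1 and by 1.24 and 1.21 in line 2. Each of these falls against the control had an adjusted p no higher than 0.0091 in limma, on technical scatter.

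MYB136 had signals of 543 and 518 in the control, 305 and 314 in line 1 and 309.6 and 254 in line 2 on its brighter probe set. The control was above every RNAi array, and the fall was 0.75 in line 1 and 0.88 in line 2 (SE 0.12 each, adjusted p 0.0225 and 0.0152 in limma), while over both lines the difference of -0.81 had an adjusted p of 0.0625. Its dimmer probe set stood at 293 and 520.2 in the control, 448 and 413 in line 1 and 493 and 242 in line 2, with full overlap and a difference of -0.02. MYB70, among the brightest members, had signals of 4031 and 3541 in the control, 2779.8 and 2493 in line 1 and 2606 and 2516 in line 2. It fell by 0.52 in line 1 and by 0.56 in line 2, with no overlap (adjusted p 0.0438 and 0.0363 in limma).

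MYB134 fell by 0.61 in line 1 and by 0.58 in line 2, from 419.9 and 377 in the control to between 242 and 282 in the lines. The dimmer probe set of MYB178 fell by 0.63 and 0.59, from 1175 and 954 to between 648 and 720.2. The brighter MYB178 probe set, at 1446 and 1273 in the control and 937.5 to 1077 in the lines, fell by 0.48 in line 1 (adjusted p 0.0453 in limma), and in line 2 it differed by -0.37 (adjusted p 0.0783). In none of these 3 probe sets did an RNAi array reach the control.

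Among the rises, MYB109 had signals of 1537 and 1489 in the control, 2303 and 2183 in line 1 and 2469 and 2318 in line 2. It rose by 0.56 in line 1 and 0.66 in line 2 with no overlap (SE 0.10 each, adjusted p 0.0244 and 0.0170 in limma), and over both lines the difference of 0.61 had an adjusted p of 0.0719. MYB68 rose by 0.92 in line 1 and 0.74 in line 2, and the dimmer MYB177 probe set was 2.14-fold and 2.37-fold higher, with adjusted p between 0.0149 and 0.0422 in limma. The brighter MYB177 probe set, with 0.58 and 0.62, was called in neither line. The rise of the dimmer MYB177 probe set kept its sign under quantile normalization and median centring. Spike scaling cannot test this sign, since every MYB difference over both lines was positive there.

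**Figure D4:**
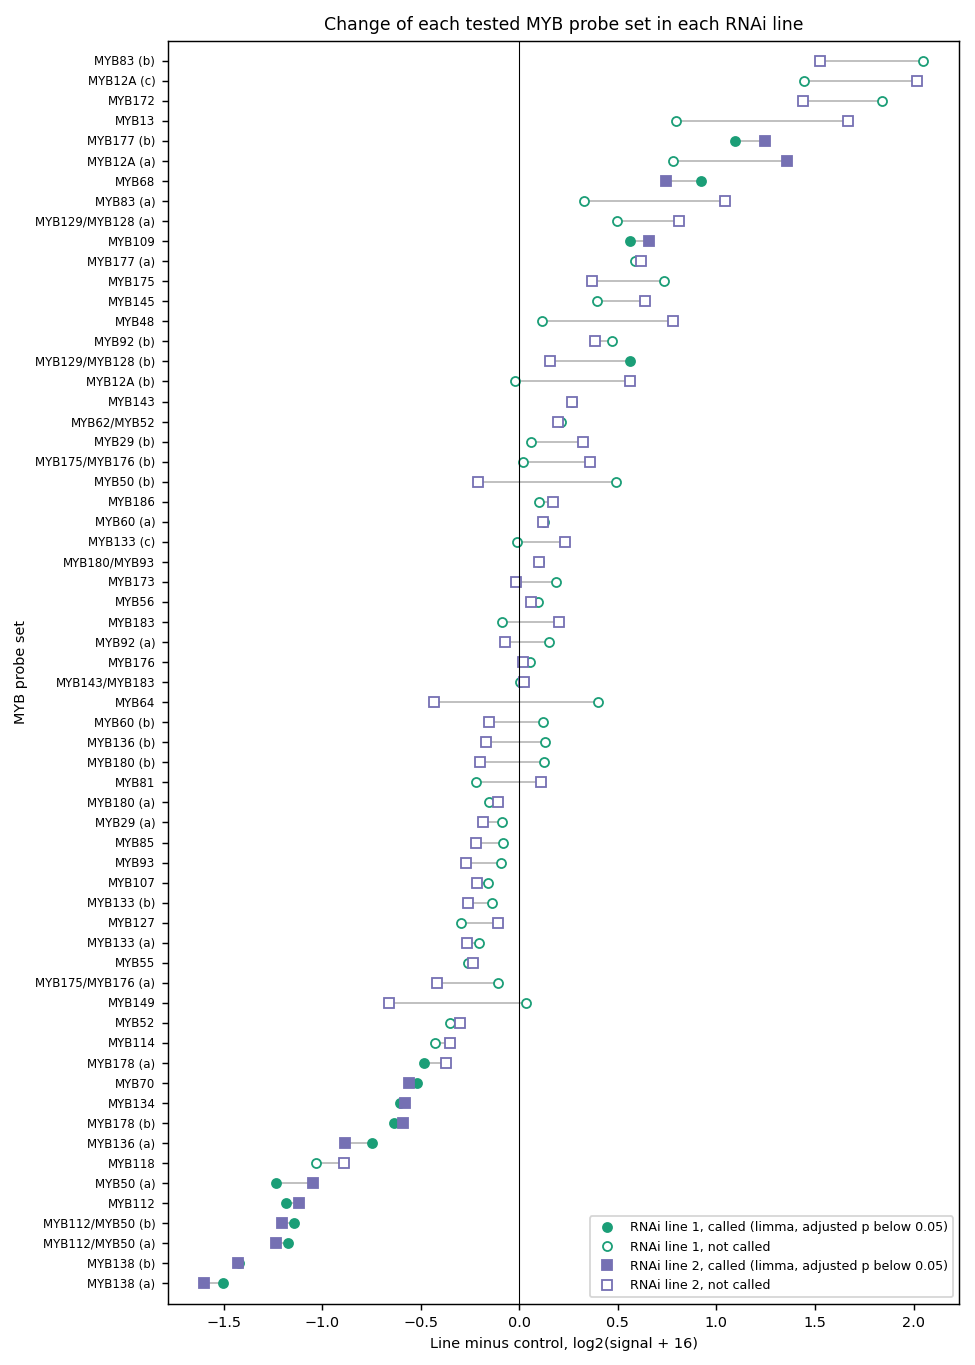
Difference of RNAi line 1 (circles) and RNAi line 2 (squares) from the control on log2(signal + 16) for each tested MYB probe set, filled where called by limma at an adjusted p below 0.05 on technical scatter, with letters ordering the probe sets of a gene by control signal. MYB138 lies lowest at -1.50 and -1.60, and the widest gaps between the lines are those of MYB13 and MYB64, at 0.87 and -0.83. By poly-A spike scaling the falls do not remain, and MYB138 is nearly unchanged over both lines.

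The larger rises that did not pass came from dim probe sets whose technical arrays differed. The SE given over both lines leaves out that scatter. Fitted on it, the SE in each line was 0.61 for the dimmer MYB83 probe set, 0.66 for MYB172 and 1.40 for MYB13. The dimmer MYB83 probe set had signals of 96.4 and 46.1 in the control, 297 and 367 in line 1 and 424 and 115 in line 2, with a difference of 1.79 (SE 0.27, adjusted p 0.0641 in limma). Both lines were above the control there, but line 2's own arrays lay far apart. The brighter MYB83 probe set, at 173 and 227 in the control, 221 and 290.2 in line 1 and 252 and 712 in line 2, overlapped and differed by 0.69 (adjusted p 0.267).

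MYB12A had 3 tested probe sets and another that exceeded background on 1 array only, at 26.3 to 81.8. The brightest stood at 97.2 and 168 in the control, 225 and 239 in line 1 and 282 and 446 in line 2. Without overlap it rose in line 2 by 1.36 (adjusted p 0.0424 in limma), and in line 1 it differed by 0.78 (adjusted p 0.146). The dimmest of the 3 stood at 143 and 24.2 in the control, 192 and 212 in line 1 and 262 and 362 in line 2, a difference of 1.73 (SE 0.29, adjusted p 0.0686 in limma). The remaining one overlapped, at 104 and 65.1 in the control, 112 and 57.9 in line 1 and 116 and 145 in line 2, with a difference of 0.27.

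MYB172 had signals of 8.43 and 69.8 in the control, 200.3 and 108 in line 1 and 146 and 79.1 in line 2. The control was lowest, and the difference was 1.64 (SE 0.21, adjusted p 0.0592 in limma), while its other 2 probe sets did not meet the rule for any sample: 1 was below background on every array, and the other exceeded it on 3 of 6 arrays. MYB13 stood at 235 and 22.5 in the control, 46.8 and 448 in line 1 and 676 and 125 in line 2. All 3 samples overlapped, and the difference of 1.23 (SE 0.42, adjusted p 0.157 in limma) turned to -0.12 without the second control array. The other 2 MYB13 probe sets were below background, between 1.15 and 31.1.

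A probe set shared by MYB129 and MYB128 was called in line 1 alone. Its signals were 50.2 and 56.2 in the control, 91.0 and 81.4 in line 1 and 57.6 and 64.7 in line 2. Only line 1 was above background, so the probe set entered the test through line 1. That selection itself favours a rise there, so the call is not read as a result about these genes. The rise in line 1 was at least 1.197-fold (adjusted p 0.0338 in limma), taking the control at the lowest signal that exceeds background on its arrays. Whether line 1 differs from line 2 here is covered by the next comparison, in which it was not called. The other tested probe set shared by these genes was called in neither line. It differed by 0.50 in line 1 and by 0.81 in line 2, the reverse order of the lines. The remaining probe sets they share met the background rule in no sample.

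Between the lines, each 1 sample on 2 technical arrays, limma called 0 of the 62 MYB probe sets and 0% of all tested soybean probe sets, which does not show that the lines were alike. The arrays of the lines did not overlap in 28 members (45.2%), beside 35.1% of all tested probe sets, and 83.9% of members differed by less than 0.5, beside 94.4% of all. Before adjustment, 4 of 62 had a p below 0.05, against 5.82% of all, and the smallest adjusted p among members was 0.780. The widest gap was that of MYB13, 0.87 higher in line 2 (SE 1.40). MYB64 went to opposite sides of the control, with 71.6 and 73.7 in the control, 108 and 94.3 in line 1 and 34.3 and 69.9 in line 2. The 3 samples did not overlap, and line 2 minus line 1 was -0.83 (SE 0.26, adjusted p 0.794 in limma) near background. The median size of the line difference was 0.146 over members and 0.107 over all tested probe sets.

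Other bright members stayed near the control. The probe set shared by MYB180 and MYB93 had signals of 3002 and 2925 in the control, 3241 and 3104 in line 1 and 3199 and 3164 in line 2, a difference of 0.10 (SE 0.10, adjusted p 0.519 in limma). The lowest RNAi array lay above the highest control array. MYB180 alone differed by -0.13 and -0.04 on its 2 probe sets and MYB93 by -0.18, with adjusted p of at least 0.388. MYB107 differed by -0.19 and MYB55 by -0.25, neither called in a line.

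Probe sets of 1 gene did not always move alike. There were 12 genes with more than 1 tested probe set, and in 4 (MYB29, MYB50, MYB60 and MYB133) the probe sets had differences of opposite sign, while in 8 the sign was shared. The spread within a gene was 1.46 in MYB12A and 1.28 in MYB50. In MYB138 it was 0.13, and in MYB178 0.19.

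**Figure D5:**
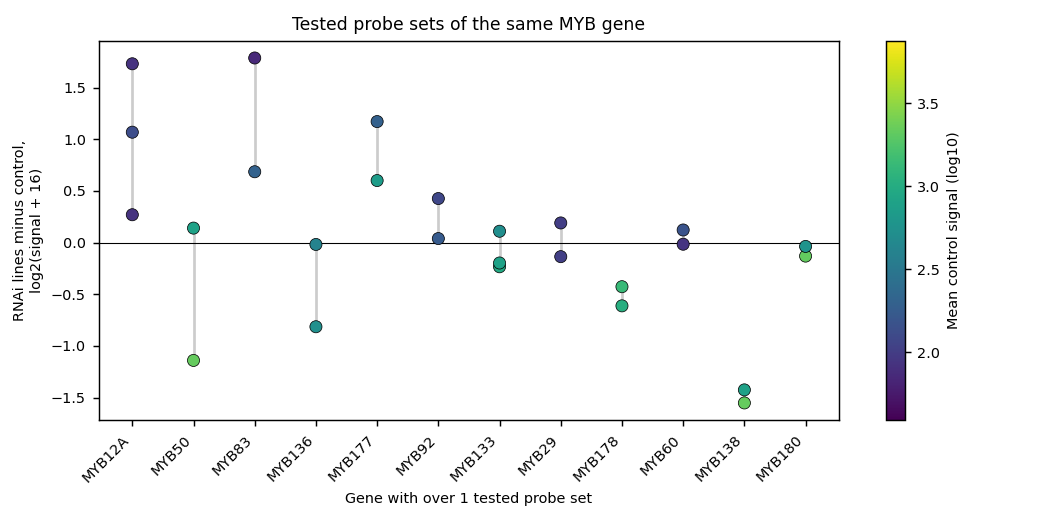
Difference of the RNAi lines from the control on log2(signal + 16) for each tested probe set (points) of the 12 MYB genes with more than 1, coloured by mean control signal on a log10 scale. Both MYB138 probe sets lie near -1.5 on the deposited scale, while the probe sets of MYB50 and MYB12A lie 1.28 and 1.46 apart. By poly-A spike scaling no value is negative, and MYB138 is nearly unchanged.

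Other MYB-domain genes on the array and clock genes they work with were looked at beside the members. All 11 probe sets of the PHR, LHY and LCL symbols were above background, and 0 were called over both lines, beside 1.64% of all tested probe sets, with 4 at an unadjusted p below 0.05 in limma. The PHR proteins control the response to phosphate starvation, and LHY and LCL proteins belong to the circadian clock. PHR20, not above background in the control, was at least 1.53-fold higher (adjusted p 0.0677 in limma), PHR7 differed by -0.65, LCL3 by 0.63 and PHR24 by -0.45. In the separate lines LCL3 rose by 0.65 in line 1, and in line 2 PHR33 rose by 0.55 and PHR24 fell by 0.50. These are 9.09% of the 11 in line 1 and 18.2% in line 2, beside 14.3% and 15.4% of all tested probe sets. LHY differed by -0.19 and 0.21 on its 2 probe sets. Of 4 probe sets of the clock list 2 were tested, and neither LUXC (-0.64) nor ZTL1 (0.04) was called.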

How the data were processed

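Linear array intensities, 1 per probe set on 6 Affymetrix arrays, were used as deposited by the authors, already scaled. The summarisation method is not given in the sources used here. Per the labels' protocols, RNA was extracted with acid phenol, cleaned on a spin column and labelled in 1 cycle. Each sample's 2 arrays are technical repeats of 1 sample. Probe sets above background on both arrays of at least 1 sample were tested. Values were log2(signal + 16). For the RNAi lines against the control, array values were averaged per sample, and limma 3.58.1 (R 4.3.3) was fitted to the 3 means, with the single control assumed to vary as the lines do. Each line and the line difference were fitted on the 6 arrays. Every fit used empirical Bayes and Benjamini-Hochberg adjustment, called at an adjusted p below 0.05. The main fits were also run on simulated data that held only scatter between technical arrays. Such data cannot check how the calls hold against variation between plants or lines.

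A fold on this scale understates the change of dim probe sets. Where a group was not above background on any of its arrays, a fold is a lower bound, taken against the lowest signal above background. The number of arrays limits the precision. Technical replicate numbers did not pair the samples, since the deviations of same-numbered arrays correlated between -0.0075 and 0.017. Described array by array were the called members, the 6 of highest control signal, the 6 largest rises and falls with 1 symbol, and other probe sets of those genes. MYB134, MYB178, MYB109, MYB68, MYB176, MYB64 and the brighter of the MYB180 and MYB93 probe sets were shown for their calls, roles or ranks. Members and lists were chosen with earlier results of these data known. Alternatives covered scaling, filter, pseudocount, empirical Bayes options, blocks and left-out arrays. Sequences of probes, promoters or proteins were not used here.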

Additional observations from a re-analysis of the deposited data

How the results depend on the processing

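The count of 3 MYB probe sets called from the mean of the 2 lines against the control rested on adjusted p just under 0.05. That count moved with nearly every setting. It was 0 with quantile normalization, without the filter, with a pseudocount of 1 and with robust empirical Bayes. It was 12 with median centring (8 lower, 4 higher), 17 with the 99th percentile filter, 18 with a pseudocount of 64, 23 with an intensity trend (13 lower, 10 higher), 16 with the arrays as replicates, 27 with the sample as a random block and 17 with the technical replicate number as a block. Leaving out an array gave 0 to 9, with 0 for each of the 4 RNAi arrays, 8 without the first control array and 9 without the second. Poly-A spike scaling, on which the control spikes were brighter, called 58, all higher, and also 58 in line 1 and 57 in line 2. The single-line counts of 15 and 14 were 6 and 6 without the filter, 12 and 12 with the replicate block, and 2 to 10 and 5 to 11 with an array left out. The count between the lines was 0 under every setting. The 62 above background were 52 at the 99th percentile, 48 on all 6 arrays and 63 to 70 with an array left out. The median control rank was 59.0 on the first control array and 57.4 on the second.

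The 24 tested probe sets followed here were those called, the brightest, those of largest rise or fall, and other probe sets of these genes. Some of them differed little from the control. Spike scaling turned 13 of their both-line differences from negative to positive, those of MYB138 only barely: MYB112 to 0.43, the MYB112 and MYB50 probe sets to 0.40 and 0.37, MYB118 to 0.46, MYB136 to 0.70 and 1.48, MYB138 to 0.0998 and 0.0074, MYB180 to 1.43 and 1.49, MYB50 to 0.42, MYB70 to 1.03 and MYB93 to 1.38. Leaving out an array gave values of both signs for 5 dim or little-changed probe sets: -0.015 to 0.56 for a MYB12A probe set, -0.12 to 2.58 for MYB13, -0.42 to 0.38 for the dimmer MYB136 (0.010 and 0.23 among them), -0.15 to 0.081 for the dimmer MYB180 and -0.012 to 0.29 for the second MYB50. The cause of these changes was not tested.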
